A study of Mus musculus with 4 samples.

Results

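Signal genes of the FGF and BMP signalling circuit of the limb bud were examined for the chromatin proteins CTCF and RAD21 around them. They are 9 of the 21938 protein-coding genes of GENCODE M21 on assembled mouse chromosomes (mm10), and were chosen by name: the fibroblast growth factors Fgf4, Fgf8, Fgf9 and Fgf10, the BMP antagonist Grem1, its neighbour Fmn1, and the ligands Bmp2, Bmp4 and Bmp7. For each gene, every peak within 5 kb of the gene body was taken, and on each side the nearest CTCF and RAD21 site up to 500 kb away. No measured value entered the choice of genes. The FGF genes lie at chr7:144847367-144865243 (Fgf4, plus strand), chr19:45736798-45742915 (Fgf8, minus), chr14:58070547-58112720 (Fgf9, plus) and chr13:118669791-118792115 (Fgf10, plus). The BMP ligand genes lie at chr2:133552159-133562885 (Bmp2, plus), chr14:46383520-46390669 (Bmp4, minus) and chr2:172868012-172940321 (Bmp7, minus).

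The study inserted the TAD border region CS38-40 of the HoxD locus into another chromosome. CTCF and RAD21 were mapped by ChIPmentation, in which Tn5 adds sequencing adapters to the immunoprecipitated chromatin, in E12.5 whole limbs of embryos that were TgN(38-40)/Wt and del(CS38-40)-/-, on a B6CBAF1 background. These embryos carried the insertion on one chromosome and lacked the endogenous region on both copies of chromosome 2, and no CTCF list with the endogenous region intact was analysed here. There were 2 replicates per antibody, and the deposited peak lists held 23829 and 26264 peaks for CTCF and 4102 and 14787 for RAD21. The only wild-type list was 1 RAD21 library of E12.5 limbs from an earlier study, with 20874 peaks, and its differences from the TgN(38-40) lists cannot be told apart from differences between the experiments. No read counts were used here, so the depth behind a peak is unknown, and a peak missing from a list means only that the site did not pass the caller's threshold in that library. Peak lists hold no expression, and whole limbs mix cell types, so neither the tissue's markers nor the activity of a gene could be read from them.

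CTCF is a DNA-binding protein that recognises a long, directional motif. RAD21 is a subunit of cohesin, the ring complex that extrudes chromatin loops and is halted at CTCF, mostly where CTCF motifs point into the loop. In the limb bud, Fgf4, Fgf8 and Fgf9 are made by the apical ectodermal ridge and keep the underlying mesenchyme growing, whereas Fgf10 comes from the mesenchyme and acts on the ridge. BMP ligands restrain the ridge and later pattern digits, and Grem1 antagonises them in a feedback loop with the ridge FGFs. Limb enhancers of Grem1 are known to lie within the neighbouring gene Fmn1, which encodes the actin regulator formin 1.

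The CTCF motifs on which the results turn are shown first, each with 20 bp on either side. The 19 bp match is in capitals and every sequence is written 5′ to 3′ on the strand of its motif, taken from GRCm38 (mm10). A plus-strand motif points toward higher coordinates and a minus-strand motif toward lower ones. The first 3 sequences belong to the CTCF sites upstream of Fgf4 and Fgf8.
Fgf4 site 1, chr7:144846335-144846393, plus strand: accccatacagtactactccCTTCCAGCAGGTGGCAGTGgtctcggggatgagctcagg
Fgf8 site 1, chr19:45746511-45746569, plus strand: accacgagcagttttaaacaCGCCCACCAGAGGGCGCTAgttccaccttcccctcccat
Fgf8 site 2, chr19:45747653-45747711, minus strand: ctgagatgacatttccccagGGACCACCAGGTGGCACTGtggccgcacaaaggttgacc

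The next 4 belong to the Fmn1 and Grem1 region, in order along the chromosome, from the site left of Fmn1, through 2 sites in its introns, to the site in Scg5 beyond Grem1. The motifs of Fmn1 site 7 and of the Scg5 site lay 50 to 100 bp from a CTCF summit, and the others within 50 bp of one.
left of Fmn1, chr2:113305511-113305569, plus strand: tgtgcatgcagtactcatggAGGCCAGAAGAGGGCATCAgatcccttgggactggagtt
Fmn1 site 2, chr2:113391101-113391159, plus strand: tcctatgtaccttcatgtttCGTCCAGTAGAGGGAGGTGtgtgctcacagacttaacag
Fmn1 site 7, chr2:113535799-113535857, plus strand: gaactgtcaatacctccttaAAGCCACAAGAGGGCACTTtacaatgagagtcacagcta
Scg5 intron, chr2:113807856-113807914, minus strand: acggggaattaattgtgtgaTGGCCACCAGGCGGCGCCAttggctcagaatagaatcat

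The last 7 are those of the sites with CTCF and RAD21 that flank the BMP ligand genes, left and right of each, and the site left of Fgf9, which had a peak in all 5 lists.
left of Bmp2 (Bmp2 site 1), chr2:133550280-133550338, plus strand: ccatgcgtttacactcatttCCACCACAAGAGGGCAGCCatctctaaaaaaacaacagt
right of Bmp2, chr2:133614817-133614875, plus strand: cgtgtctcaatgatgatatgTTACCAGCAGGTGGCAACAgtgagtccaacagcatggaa
left of Bmp4, chr14:45993831-45993889, plus strand: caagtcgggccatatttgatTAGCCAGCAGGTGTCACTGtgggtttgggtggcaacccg
right of Bmp4, chr14:46565157-46565215, minus strand: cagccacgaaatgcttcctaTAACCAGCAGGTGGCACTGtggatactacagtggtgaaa
left of Bmp7, chr2:172831934-172831992, plus strand: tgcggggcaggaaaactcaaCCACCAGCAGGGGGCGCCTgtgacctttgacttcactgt
right of Bmp7, chr2:172949243-172949301, minus strand: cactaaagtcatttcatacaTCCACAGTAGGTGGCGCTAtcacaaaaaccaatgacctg
left of Fgf9, chr14:58034760-58034818, plus strand: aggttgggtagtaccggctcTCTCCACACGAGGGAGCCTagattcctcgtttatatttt

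Close to the genes, CTCF was found at Fgf4, Fgf8 and Fmn1 in both replicates. A CTCF peak lay within 5 kb of 3 of the 9 gene bodies in replicate 1, where 46.8% of all protein-coding genes had one. In replicate 2 there were 5, with Bmp2 and Bmp4 added, against 49.6% of all genes. The 3 genes with a CTCF peak in both replicates stand beside 44.5% of all genes. For RAD21, 0 of 9 genes had a peak in replicate 1, against 9.91% of all genes, and 3 did in replicate 2, namely Fgf8, Fmn1 and Bmp2, against 32.4%. The wild-type RAD21 list had a peak at 4, the same 3 genes and Bmp4, against 41.1%. No list had a peak within 5 kb of Fgf9, Fgf10, Grem1 or Bmp7. These shares were close to those of all genes, apart from lower counts in both lists of replicate 1, and 9 genes are too few to set them apart.

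**Figure D1:**
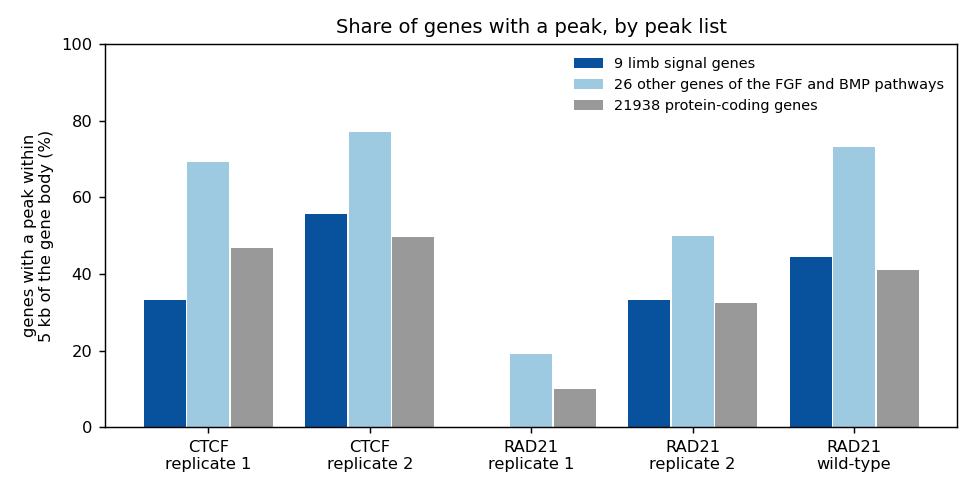
Percent of genes with a peak within 5 kb of the gene body (vertical axis, from 0 to 100%) in each of the 5 peak lists, for the 9 limb signal genes, 26 other genes of the FGF and BMP pathways and all 21938 protein-coding genes. The limb signal genes stand at 33.3% and 55.6% for CTCF and at 0%, 33.3% and 44.4% for RAD21, where the bar of RAD21 replicate 1 is empty, and the 26 pathway genes stand higher in each list.

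Other genes of the same pathways had peaks in a larger share, a difference that was not tested. Of 26 receptors, antagonists, transducers and target genes, 18 had a CTCF peak within 5 kb in replicate 1 and 20 in replicate 2. Over all protein-coding genes, 46.8% and 49.6% had one. RAD21 peaks lay at 5 in replicate 1, at 13 in replicate 2 and at 19 in wild-type limbs. The shares of all genes were 9.91%, 32.4% and 41.1%. Among the 8 receptor genes, 7 had CTCF in both replicates, against 44.5% of all genes. Of these receptors, Fgfr1, Fgfr2, Fgfr3 and Bmpr1b had a peak in all 5 lists. Among the secreted antagonists, Nog, Fst and Twsg1 had CTCF in both replicates, whereas Chrd, like Grem1, had no peak in any list. Gene length moves with these shares: in replicate 1, 34.1% of genes under 20 kb had a CTCF peak, against 79.3% of genes over 100 kb. The part of gene length in the difference between the lists of genes was not tested.

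In all, 15 sites lay within 5 kb of a member, counting overlapping peaks as 1 site. CTCF was called at 14, in both replicates at 10, in replicate 1 alone at 1 and in replicate 2 alone at 3. RAD21 of TgN(38-40) limbs was called at 7, all from replicate 2, and each of these 7 also had a wild-type RAD21 peak. The wild-type list held 1 more, in Bmp4. The share of all TgN(38-40) RAD21 sites with a wild-type peak is not given here. At 7 sites CTCF had no RAD21 in any of the 3 RAD21 lists. Over all CTCF peaks of replicate 2, that share went from 13.0% in the strongest 20% by fold to 62.4% in the weakest 20%. A CTCF motif was found within 50 bp of a summit at 11 sites and within 100 bp at another 3. Over all CTCF peaks, counted singly and not as merged sites, 51.5% in replicate 1 and 66.1% in replicate 2 had a motif within 50 bp.

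**Figure D2:**
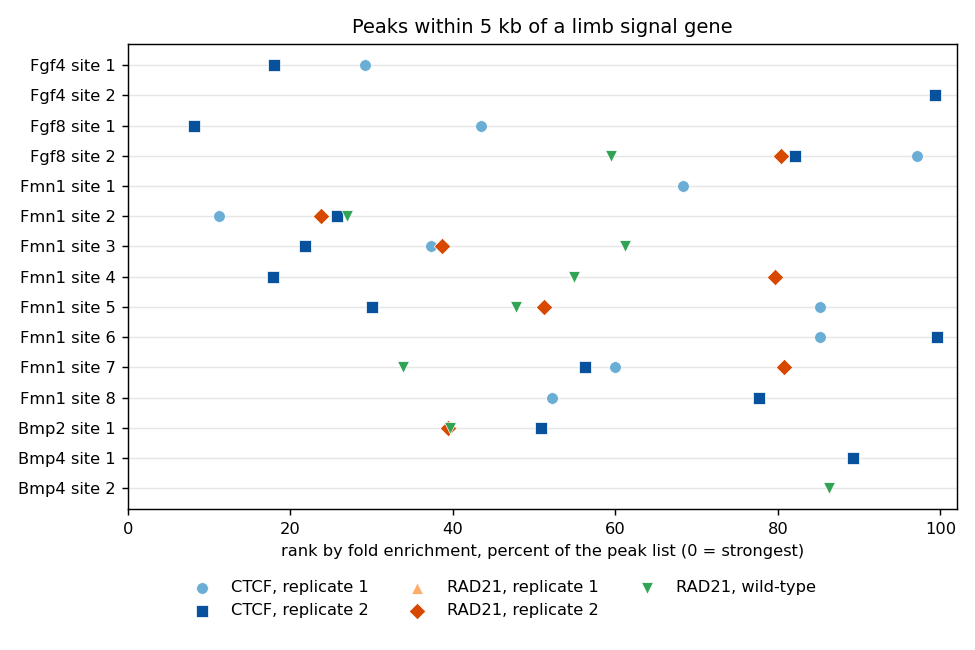
Rank by fold enrichment of each peak within 5 kb of a member, as a percent of its own list (0 is the strongest peak), for the 15 sites in rows and the 5 peak lists by marker. RAD21 replicate 1 has no point, both CTCF points of Fmn1 site 4 fall on each other at 17.9%, and Fgf4 site 1 and Fgf8 site 1 show CTCF alone while the 5 Fmn1 sites with RAD21 show it in replicate 2 and in wild-type limbs.

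Fgf4 and Fgf8, which encode the main FGFs of the ridge, each had a CTCF site upstream that ranked by fold in the strongest 20% of replicate 2, though not of replicate 1, with no RAD21 peak in any list. Fgf4 site 1 (chr7:144846111-144846626, intergenic) had a fold enrichment of 7.65 in CTCF replicate 1, at the strongest 29.1% of that list, and of 10.6 in replicate 2, at the strongest 18%. Its middle lay 999 bp upstream of the first annotated start of Fgf4. GENCODE also gives a later start, and from that one the site lay 15018 bp upstream. A second peak, Fgf4 site 2 (chr7:144846721-144846853), was called in replicate 2 alone with a fold of 4.01, near the end of its list at 99.4%. Its motif match, on the minus strand, was weak, at or above 19.3% of the peaks the motif was learned from, whereas that of site 1 was at or above 63.0%.

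Upstream of Fgf8, a pair of CTCF sites stood between its first start and the nearest start of its neighbour Npm3, which encodes a histone chaperone. Fgf8 site 1 (chr19:45746315-45746825, intergenic) lay 3655 bp upstream of the first Fgf8 start and had a fold of 6.83 in CTCF replicate 1, at 43.4% of the list, and of 12.3 in replicate 2, in the strongest 8.08%. Fgf8 site 2 (chr19:45747404-45747778) lay 4676 bp upstream, its far part overlapping an exon of Npm3. Both sites were nearer to a start of Npm3 than to one of Fgf8, with site 1 at 2979 bp and site 2 at 1958 bp from Npm3. Fgf8 site 2 differed from site 1 in its peaks. It was weak for CTCF, with folds of 4.1 and 5.59, at 97.1% and 82.2% of the lists. Yet RAD21 was called at site 2, with a fold of 5.57 in replicate 2 and of 3.96 in wild-type limbs, and not at site 1. The motifs of both sites were near the CTCF consensus, at or above 91.1% and 85.4% of the peaks behind the motif model. They started 1142 bp apart and pointed toward each other, with site 1 on the plus strand and site 2 on the minus strand.

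Among the CTCF peaks of replicate 2 with the highest folds, those without RAD21 were a minority. In the strongest 20% of CTCF replicate 2, to which Fgf4 site 1 and Fgf8 site 1 belong, 76.1% of 5258 peaks overlapped a RAD21 peak of replicate 2, and 13.0% overlapped none of the 3 RAD21 lists. Within 5 kb of a transcript start, the latter share was 20.5% of 1879 peaks. In the weakest 20%, to which Fgf8 site 2 belongs, 23.0% of 4860 peaks overlapped RAD21 of replicate 2. In replicate 1, Fgf4 site 1 and Fgf8 site 1 ranked lower, at 29.1% and 43.4%, and the shares were not computed for that list. They describe the lists and are not a test of the Fgf4 and Fgf8 sites.

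**Figure D3:**
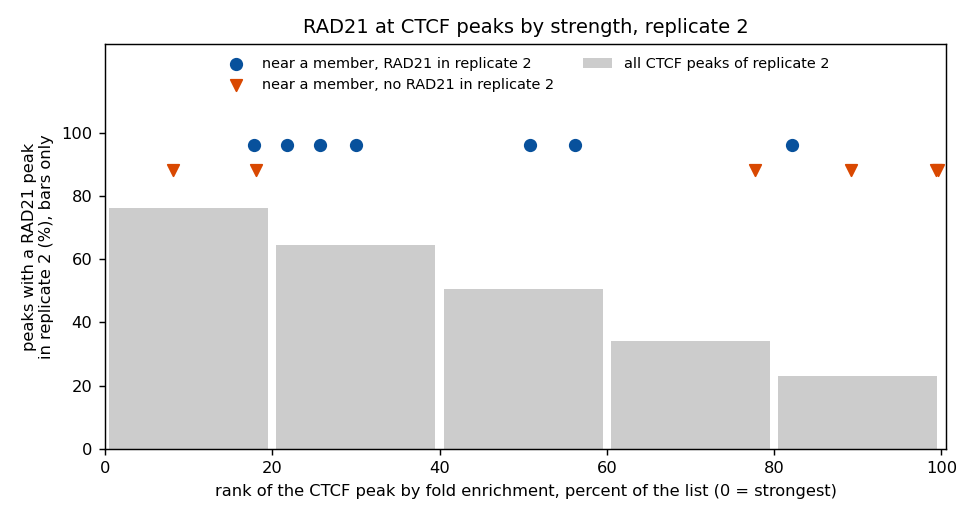
Percent of CTCF replicate 2 peaks that overlap a RAD21 peak of replicate 2 (bars, vertical axis) in steps of 20% of the list ranked by fold enrichment (horizontal axis, 0 is the strongest). The bars fall from 76.1% to 23.0%. The points, whose height carries no value, mark the CTCF peaks within 5 kb of a member, with RAD21 in the upper row and without it in the lower row, where Fgf8 site 1 at 8.08% and Fgf4 site 1 at 18% are the 2 on the left.

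Further out, the nearest CTCF sites of the members were set beside those of all genes, with no test. Over the 18 sides of the 9 genes, the median distance from the gene body to the nearest CTCF site was 33096 bp, against 34225 bp over all protein-coding genes. Taking only the nearer side of each gene, the median was 3400 bp, against 15723 bp. This did not hold in each replicate by itself. The nearer-side median was 35622 bp in CTCF replicate 1, against 18953 bp, and 8863 bp in replicate 2, against 17215.5 bp. For the nearest CTCF site that also carried TgN(38-40) RAD21 the median over both sides was 61343 bp, against 77935 bp, and over the nearer side 30670 bp, against 36271.5 bp. Without replicate 2 of both antibodies, the members' medians over both sides were 50388 bp for CTCF and 405238 bp for CTCF with RAD21. A CTCF site lay within 500 kb on both sides of 8 of the 9 genes, and on 17 of the 18 sides. Over all protein-coding genes, 92.2% of sides had one, and 12.2% of genes lacked one on a side. CTCF with RAD21 lay within 500 kb on 16 sides of the members, against 88.2% of sides over all genes. These 16 sides fell on 15 different sites, as Fmn1 and Grem1 share 1. RAD21 was called at all 15 in replicate 2, at 14 in the wild-type list and at 3 in replicate 1, namely those left of Fgf8, of Fgf9 and of Bmp4. The sites were taken for a RAD21 peak in either replicate, and the replicate 2 list is the longer. The counts by replicate therefore largely follow from that choice and do not measure reproducibility. The same counts over all CTCF sites with RAD21 are not given here.

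**Figure D4:**
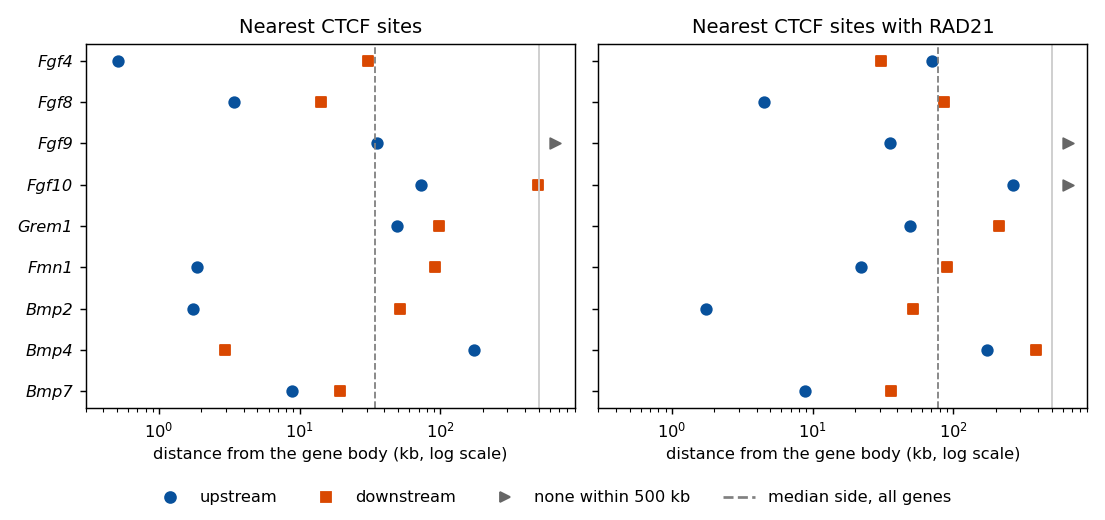
Distance from the gene body to the nearest CTCF site (left) and to the nearest CTCF site with RAD21 (right), upstream and downstream of each member, in kb on a log axis. Dashed lines are the medians over all protein-coding genes, 34225 bp and 77935 bp, the solid line is the limit of 500 kb, and triangles mark sides with no site within it, which are downstream of Fgf9 and of Fgf10.

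For the ridge FGFs, sites with CTCF and RAD21 lay within 500 kb on both sides of Fgf4 and Fgf8, and upstream alone at Fgf9. The nearest site with CTCF and RAD21 left of Fgf4 was 70907 bp upstream, with CTCF folds of 7.48 and 9.61, RAD21 of 7.34 in replicate 2 and wild-type RAD21 of 6.62. To the right it was 30670 bp downstream (chr7:144895913-144896156), 497 bp from the nearest annotated start, that of Fgf15. There the CTCF folds were 4.85 and 6.95, and RAD21 was at 6.15 in replicate 2 and 6.32 in wild-type limbs. Within their lists, these CTCF peaks stood at 86.9% and 59.3% and the RAD21 peaks at 69.4% and 28.5%. The 119452 bp between both sites held 1 other gene, Fgf3, so that Fgf3 and Fgf4 were on one side of the right-hand site and Fgf15 on the other. At Fgf8, the left-hand site (chr19:45650078-45650294) lay 86504 bp downstream in an intron of Fbxw4, a gene in which limb enhancers of Fgf8 are known. It had folds of 9.27 and 9.39 for CTCF, of 11.4 and 8.10 for RAD21 and of 4.29 in the wild-type list, but no CTCF motif within 100 bp of its summits. In RAD21 replicate 1 it was in the strongest 0.878% of the list and in replicate 2 at 38.3% of a list more than 3 times as long. With Fgf8 site 2 on the right, the interval measured 97109 bp. Over all genes, 18.1% had an interval as short as that of Fgf8 or shorter, and 24.2% one as short as that of Fgf4 or shorter. For the other members this share was 8.96% at Bmp2, 23.5% at Bmp7 and 55.3% at Grem1. It was 73.9% at Fmn1, 76.6% at Bmp4, 83.8% at Fgf9 and 84.3% at Fgf10, where the right-hand sites of Fgf9 and Fgf10 lay beyond 500 kb.

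Fgf9, the third ridge FGF, had a site 35522 bp upstream (chr14:58034657-58035025, intergenic) that was called in every list. Its folds were 7.19 and 7.69 for CTCF, 6.76 and 7.14 for RAD21 and 5.95 in the wild-type list. Its motif match, on the plus strand, was weak, at or above 21.75% of the peaks the motif was learned from. The site was 1 of the 3 flanking sites with a peak in both RAD21 replicates. Downstream of Fgf9, no list had a peak within 500 kb, and the nearest CTCF site was 589229 bp away. Over all genes, 92.2% of sides had a CTCF site within 500 kb.

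Fgf10, the mesenchymal FGF, stood in the emptiest surroundings of the 9 genes. Within 500 kb of the gene body there were 6 CTCF sites, 5.35 per Mb, and 13.0% of all genes had as low a density or lower, with a median of 16.7 per Mb. The nearest CTCF site upstream, at 72661 bp, was called in replicate 2 alone with a fold of 6.26 and had no RAD21. The nearest with RAD21 was 265934 bp upstream (chr13:118403690-118403857), with weak CTCF folds of 4.51 and 5.64 and RAD21 of 8.93 in replicate 2 and 7.47 in wild-type limbs. Within their own lists, these CTCF peaks stood at 92.4% and 79.4% and the RAD21 peaks at 28.2% and 17.6%. Downstream, the nearest CTCF site was 491341 bp away, with folds of 6.27 and 8.86, and had a RAD21 peak in the wild-type list alone, with a fold of 2.94.

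**Figure D5:**
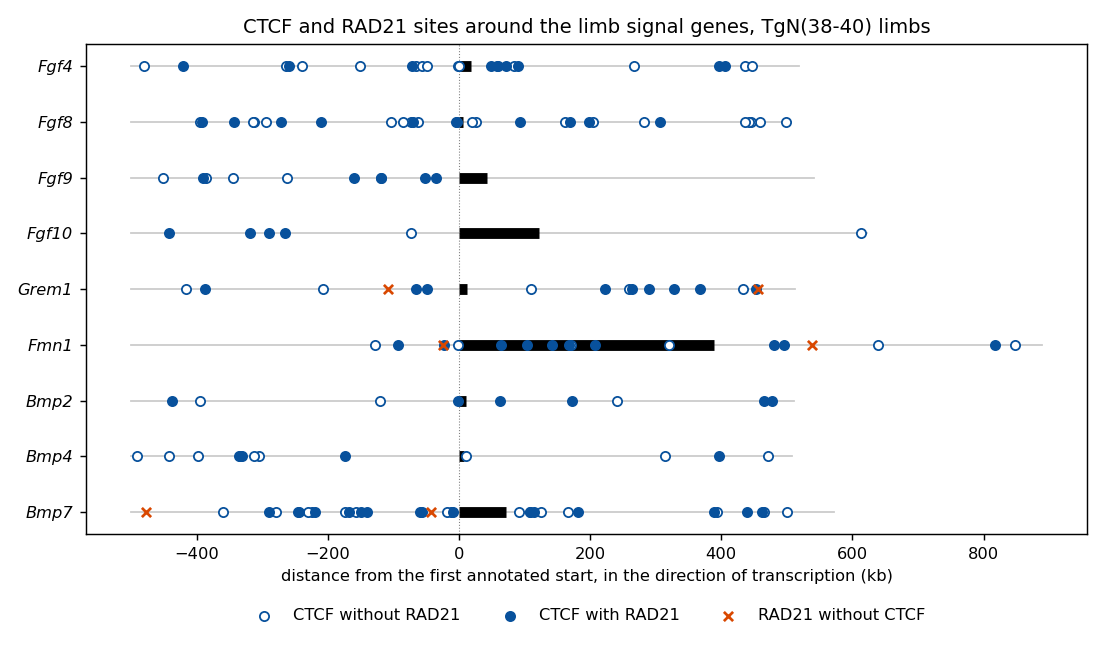
CTCF and RAD21 sites of TgN(38-40) limbs within 500 kb of each member, by distance in kb from its first annotated start, with positive values in the direction of transcription. Black bars are gene bodies, filled circles CTCF sites with RAD21, open circles CTCF sites without it and crosses RAD21 sites without CTCF. Fgf9 has no site downstream and Fgf10 has 1, Bmp7 has 31 CTCF sites, and a row of filled circles lies inside Fmn1.

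Grem1 had no peak of its own and was flanked by sites inside its neighbours. The gene (chr2:113746164-113758646, minus strand) lies to the right of Fmn1 and to the left of Scg5, which encodes a neuroendocrine secretory protein. Upstream of Grem1, the nearest CTCF site was 48997 bp away in an intron of Scg5 (chr2:113807643-113808029). Its folds were 8.23 and 8.28 for CTCF, 9.32 for RAD21 in replicate 2 and 6.11 in wild-type limbs, and RAD21 replicate 1 had none. Downstream, the nearest CTCF site was Fmn1 site 8, at 97567 bp, with CTCF folds of 6.40 and 5.78 and no RAD21. The nearest with RAD21 was Fmn1 site 7, at 210132 bp. The 271610 bp between Fmn1 site 7 and the Scg5 site held Grem1 as the only whole protein-coding gene and 1 other CTCF site.

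Fmn1 held more CTCF sites with RAD21 than most genes of its size. Its body (chr2:113327736-113716767) contained 7 CTCF sites, all in introns, and 5 of them carried RAD21. Among 337 genes of 300 to 500 kb, the medians were 3 and 1, and 90.8% and 99.4% of these genes had as many or fewer. The 5 sites with RAD21 were sites 2, 3, 4, 5 and 7, which together with site 6 spanned 145116 bp of the gene. The strongest in CTCF replicate 1 was site 2, with folds of 9.14 and 9.75 for CTCF, 9.39 for RAD21 and 6.47 in the wild-type list. Site 3 had CTCF folds of 7.19 and 10.2, RAD21 of 8.10 and wild-type RAD21 of 3.87. Site 4 had CTCF folds of 8.48 and 10.7, RAD21 of 5.60 and wild-type RAD21 of 4.24. Among these, RAD21 was called in replicate 2 and in wild-type limbs each time, and never in replicate 1.

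Sites 5 and 6 of Fmn1 were 3682 bp apart. In CTCF replicate 1 both had the same fold of 4.93, whereas in replicate 2 site 5 stood at 30.0% of the list with a fold of 9.33 and site 6 stood at 99.6% with 3.88. RAD21 was called at site 5 alone, with a fold of 7.22 in replicate 2 and of 4.71 in wild-type limbs. Site 7 had CTCF folds of 6.06 and 7.20, RAD21 of 5.54 and wild-type RAD21 of 5.83. Left of the gene, site 1 lay 1931 bp upstream of the first start and was called in CTCF replicate 1 alone, with a fold of 5.66 and no RAD21.

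The motifs inside Fmn1 did not share a direction. Within 50 bp of a CTCF summit, those of sites 2 and 5 were on the plus strand and those of sites 3, 6 and 8 on the minus strand. Within 100 bp, site 7 had a plus-strand motif and site 4 a minus-strand one. The site left of Fmn1 with CTCF and RAD21 (chr2:113305357-113305705), 22031 bp upstream, had a plus-strand motif and CTCF folds of 7.31 and 11.1. With the wider window, the Scg5 site had a minus-strand motif, so that the flanking motifs of both Fmn1 and Grem1 pointed toward each other. The Scg5 site is the right-hand one of both genes. Over all protein-coding genes, 15865 could be placed with the window of 100 bp, and 28.8% of them had motifs toward each other. With the window of 50 bp, no motif was found at the Scg5 site and neither gene could be placed.

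Of the BMP ligands, Bmp2 had CTCF and RAD21 at its promoter side, and not in every replicate. Bmp2 site 1 (chr2:133550156-133550544, intergenic) lay 1809 bp upstream of the only annotated start. CTCF was called in replicate 2 with a fold of 7.56, RAD21 in replicate 2 with 8.05 and in wild-type limbs with 5.35, and neither replicate 1 list held a peak. In CTCF replicate 1, the nearest peak on that side was 120801 bp away. To the right of Bmp2, 51779 bp downstream, a site with folds of 9.14 and 9.92 for CTCF had RAD21 of 6.05 in replicate 2 and of 3.50 in wild-type limbs. Between both sites lay 64246 bp with no other protein-coding gene and no further CTCF site, and 8.96% of all genes had an interval as short or shorter, with a median of 234173 bp. Both motifs were on the plus strand.

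Bmp4 had weak peaks close by and wide intervals around it. Bmp4 site 1 (chr14:46380377-46380603), in an exon of Gm15217 beyond the end of the gene, was called in CTCF replicate 2 alone with a fold of 5.01, at 89.2% of the list. Bmp4 site 2, in an intron of Bmp4, was a RAD21 peak of the wild-type list alone with a fold of 2.81, at 86.3% of that list, and had no CTCF peak or motif. The nearest sites with CTCF and RAD21 were 174377 bp upstream and 389410 bp downstream. Upstream, the CTCF folds were 6.80 and 6.67 and RAD21 was weak in replicate 2, at 4.77 or 93.7% of the list, with 5.27 in the wild-type list. Downstream, CTCF had folds of 6.97 and 8.71, RAD21 of 5.38 and 8.87 and wild-type RAD21 of 8.30, so that every list held a peak. The motifs of both sites pointed toward each other across 570935 bp.

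Bmp7 lay in the densest surroundings of the 9 genes. Within 500 kb of its body there were 31 CTCF sites, 28.9 per Mb, of which 15 carried RAD21, and 79.7% and 89.5% of all genes had as low a density or lower. Fgf8 followed closely, with 28.8 CTCF sites per Mb. The nearest site upstream of Bmp7, 8833 bp from the gene (chr2:172949154-172949442), had CTCF folds of 6.67 and 4.61 and RAD21 of 5.68 in replicate 2. Its CTCF peaks stood at 47.0% and 95.45% of their lists, so that of replicate 2 was weak, and its RAD21 peak at 77.1%. This upstream site was the one nearest site with RAD21 that had no wild-type RAD21 peak, and the nearest wild-type RAD21 peak on that side was 42840 bp away. Downstream, a CTCF site at 19465 bp had folds of 6.25 and 8.53 and no RAD21. A site at 35844 bp had CTCF folds of 6.19 and 7.62, RAD21 of 7.00 in replicate 2 and of 5.21 in wild-type limbs. This site and the upstream one had motifs that pointed toward each other across 116985 bp, whereas the CTCF site between them and the gene end had a minus-strand motif.

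The direction of the flanking motifs can be set beside that of all genes. With CTCF and RAD21 within 500 kb on both sides and a motif at each, 3 members could be placed: the motifs pointed toward each other at Bmp4 and Bmp7 and in the same direction at Bmp2. Without replicate 2 the count was again 2, for Bmp2 and Bmp7, but the pairs were of other sites. The flanking sites reported for Bmp2 and Bmp7 had no RAD21 peak in replicate 1. In that list the nearest peaks lay 438241 bp left and 466869 bp right of Bmp2, and 42471 bp left and 56034 bp right of Bmp7. Over all protein-coding genes, 12300 could be placed, of which 28.7% had motifs toward each other, 42.1% in the same direction and 29.3% away from each other. For the nearest CTCF sites regardless of RAD21, 5 members could be placed and 0 had motifs toward each other, against 28.0% of the 10786 genes that could be placed. With 3 or 5 genes, no difference from all genes can be shown.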

How the data were processed

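CTCF and RAD21 were profiled by ChIPmentation in E12.5 limbs. Per the study's methods and the submitters' processing notes, the authors trimmed reads with cutadapt 1.16, mapped them to mm10 with Bowtie2 2.3.4.1 and ran MACS2 2.1.1.20160309 on each replicate. The control given to MACS2 is not stated in the sources used here. The deposited lists give each peak's position, its fold enrichment (a ratio to the local expectation) and, as -log10, both the p-value and the q-value of the caller. Folds were not compared between lists, whose depth is unknown, and folds of several lists printed together are not a comparison. Ranks, where given, are a percent of each list, and many sites are described by folds alone. Columns of other samples left unused numbered 0.

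Peaks overlapping by at least 1 bp were merged into sites over the replicates. A CTCF site carried RAD21 where it overlapped a TgN(38-40) RAD21 peak. Genes are those of GENCODE M21 and sequences those of GRCm38. Distances run from the gene body to the nearer edge of the site, and those upstream of a start to the middle of the site. The CTCF motif was a 19 bp matrix learned from CTCF peaks of replicate 2 ranked 101 to 2100 by q-value, on autosomes without a member and other than 10 and 18. It was searched within 50 bp of each summit and called at the score reached by 5% of flanking sequences. The motif and overlap searches were tested on simulated data.

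Samples were grouped by their labels, and nothing pairs the replicates of the antibodies. With 2 replicates and no counts, no site was tested, and counts are set beside those of all genes. The members and lists were chosen with earlier results of these data known. The text names the 9 members, every peak within 5 kb of them, the nearest sites and up to 5 genes between them. The ranking of CTCF peaks by RAD21, the body counts of Fmn1 and the gene families were added with the data in view. The alternatives tried were stricter q-values, other windows, the summit, the custom genome, leaving out a replicate, the wild-type RAD21 list and other motif settings. The input libraries were not used here. Python 3.11.15, numpy 2.4.6, pandas 2.3.3, pysam 0.24.0 and matplotlib 3.10.9 were used.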

Additional observations from a re-analysis of the deposited data

How the results depend on the processing

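No paired analysis was possible because no result comes from a test. Of 66 alternative values for 11 results, 53 stayed within 1.5 times the count or within the spread between replicates, and 13 did not. That spread was the SD of the 2 values with a replicate left out, which were themselves judged by it. For the distance to CTCF with RAD21 it was 243149 bp, more than the reported 61343 bp, so only large shifts fell outside it. The 5 members with a CTCF peak in replicate 2 became 3 at a -log10 q of at least 10 (without Bmp2 and Bmp4), 3 within 2 kb of the body and 3 within 5 kb of a transcript start. The median distance to the nearest CTCF site grew to 50388 bp at a -log10 q of at least 5 and to 72906 bp at 10, and ranged from 33109.5 to 50388 bp with a replicate left out. With RAD21 it grew to 317018 bp at a -log10 q of at least 10. It ranged from 61373 bp without replicate 1 to 405238 bp without replicate 2, whose RAD21 list is the larger. Without replicate 2, the 2 members whose sites with RAD21 pointed toward each other were Bmp2 and Bmp7, by sites other than those reported. The count became 1 (Bmp7) at a -log10 q of at least 10, which the reported site upstream of Bmp7 did not reach. It became 4 with a motif window of 100 bp, with Grem1 and Fmn1 added to Bmp4 and Bmp7. With that window, 28.8% of the 15865 genes that could be placed had motifs toward each other. For the nearest CTCF sites the count of 0 became 2 at a -log10 q of at least 5, 1 at 10 and 1 within 100 bp. Over all genes, 27.4% of the 15024 that could be placed within 100 bp had such motifs toward each other. On the custom genome, the 5 members not on chromosome 2 had the same peaks by gene in all 4 lists. Ranking by q-value moved 3 of 39 peaks by 10% of their list or more, at most by 12.8%. The cause of these shifts beyond the fewer peaks or libraries used was not tested. Read depth was not given, so what it limits could not be measured, and RAD21 replicate 1 held the fewest peaks, 4102.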

Other observations

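The ligand families of which the members are part had peaks at differing shares. Of the 22 protein-coding genes named Fgf and a number, the 4 members included, 15 had a CTCF peak within 5 kb in replicate 1 and 16 in replicate 2, beside 46.8% and 49.6% of all protein-coding genes. RAD21 peaks lay at 4 and 11 of them in the replicates and at 13 in the wild-type list, beside 9.91%, 32.4% and 41.1% of all genes. Of the 8 genes named Bmp and a number, without the protease gene Bmp1, 2 had a CTCF peak in replicate 1 and 4 in replicate 2. RAD21 peaks lay at 0 and 3 of them in the replicates and at 5 in the wild-type list. The shares of all genes beside the Bmp counts are the same as those beside the Fgf counts. Both lists of genes were chosen after the data were seen, and gene length was not matched.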
